A study of Mus musculus with 2 samples.

Results

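Expression of 10 genes that mark the onset of gliogenesis was examined in 2 areas of the mouse brain at embryonic day 16.5, the subventricular zone (SVZ) and the cortex. The genes were chosen by name from the 24411 genes counted, as known genes of the oligodendrocyte and astrocyte lineages: Olig1, Olig2, Sox10, Pdgfra, Cspg4, Egfr, Aldh1l1, Aqp4, Gfap and Apoe. All 10 were listed in the counts. The areas were cut from stained cryosections of fresh frozen heads by laser capture microdissection (LCM), in which a laser cuts chosen tissue out under the microscope, and were profiled by bulk RNA-seq. The data comprised 1 SVZ library and 1 cortex library from embryos with no treatment or genotype given in the labels. How many embryos and sections stand behind each library, and of which strain, is not given in the sources used here.

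With 1 library per area, no difference reported here has a replicate check, and no p-value was computed. STAR assigned 51435667 SVZ reads and 22050693 cortex reads to genes, and levels are given as CPM, the count scaled to 1000000 such reads. In CPM, 1 read was worth 0.0194 in SVZ and 0.0454 in cortex. The intervals given are exact 95% intervals of the read counts (Clopper-Pearson for a ratio or share, Poisson for a level). They cover counting error only, since PCR duplicates could not be told from separate molecules. A gene with no cortex read was set at a floor of 3 reads (0.136 CPM), and its ratio against this floor is given as a lower bound. The exact interval of 0 cortex reads reaches higher, to 0.167 CPM, and the lower end of the interval of such a ratio is given beside its bound for the 10 genes. The area labels were checked on marker genes. Among genes whose CPM averaged at least 1 over the libraries (called tested genes here), 8 of 9 radial glia markers were higher in SVZ by 4-fold or more and 6 of 10 neuron markers higher in cortex by as much, with 0 in the opposite direction. Of all tested genes, 10.2% were higher in SVZ and 7.01% in cortex by 4-fold or more. The neuron markers still summed to 3329 CPM in SVZ, against 9426 CPM in cortex.

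Radial glia, the stem cells that line the ventricle, first produce neurons and later turn to glia. Oligodendrocyte precursors carry the transcription factors Olig1, Olig2 and Sox10 and the surface proteins Pdgfra and Cspg4, and the first of them reach the cortex by migration from ventral parts of the forebrain. Astrocytes keep many genes that radial glia already use and add others, such as the filament gene Gfap and the water channel gene Aqp4, as they mature. Bulk tissue cannot tell fewer cells of a type from less RNA per cell.

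The oligodendrocyte genes lay on both sides of equal levels, within 4-fold, and Egfr and the astrocyte genes were all higher in SVZ. The 5 oligodendrocyte genes summed to 12.1 CPM in SVZ and 12.0 CPM in cortex. The 4 astrocyte genes summed to 192 CPM in SVZ and 10.6 CPM in cortex. Egfr, Aldh1l1, Aqp4 and Gfap had reads in SVZ and none in cortex.

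**Figure D1:**
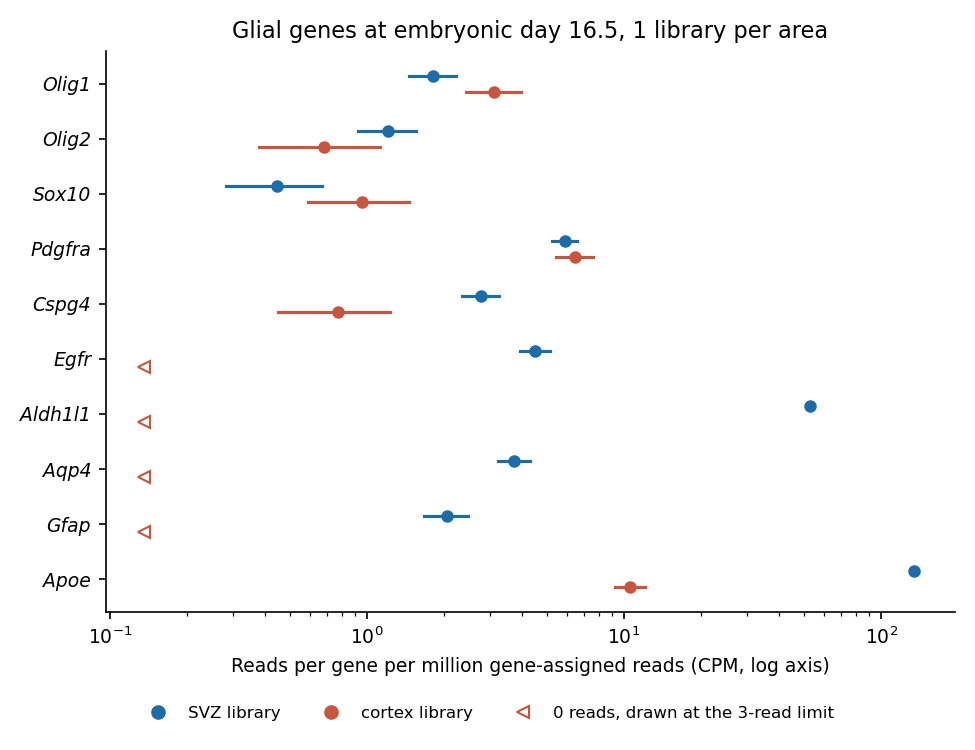
Level of each gene in CPM (log axis) in SVZ (blue) and cortex (red), 1 library each, with exact 95% Poisson intervals of the read counts as bars. Open triangles mark genes with 0 cortex reads, drawn at the floor of 3 reads (0.136 CPM). Egfr, Aldh1l1, Aqp4 and Gfap have cortex triangles, and the cortex points of Olig1, Sox10 and Pdgfra lie to the right of the SVZ points.

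Averaged over the libraries, 8 of the 10 genes reached 1 CPM, and Olig2 and Sox10 fell short of it. Among these 8, 5 were higher in SVZ by 4-fold or more (Egfr, Aldh1l1, Aqp4, Gfap and Apoe), where 10.2% of all 12738 genes with that mean were. The whole counting interval of these 5 lay above 4-fold, as 8.16% of all tested genes did in that direction. With Cspg4, 6 of the 8 were higher in SVZ by any amount, beside 54.9% of all tested genes. None of the 8 was higher in cortex by 4-fold or more, where 7.01% of all tested genes were. No cortex read was found for 4 of the 8, against 1.47% of all tested genes. Egfr, Aldh1l1, Aqp4 and Gfap reached the mean through SVZ alone and so had to differ, and the count of 5 is a description of these genes.

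**Figure D2:**
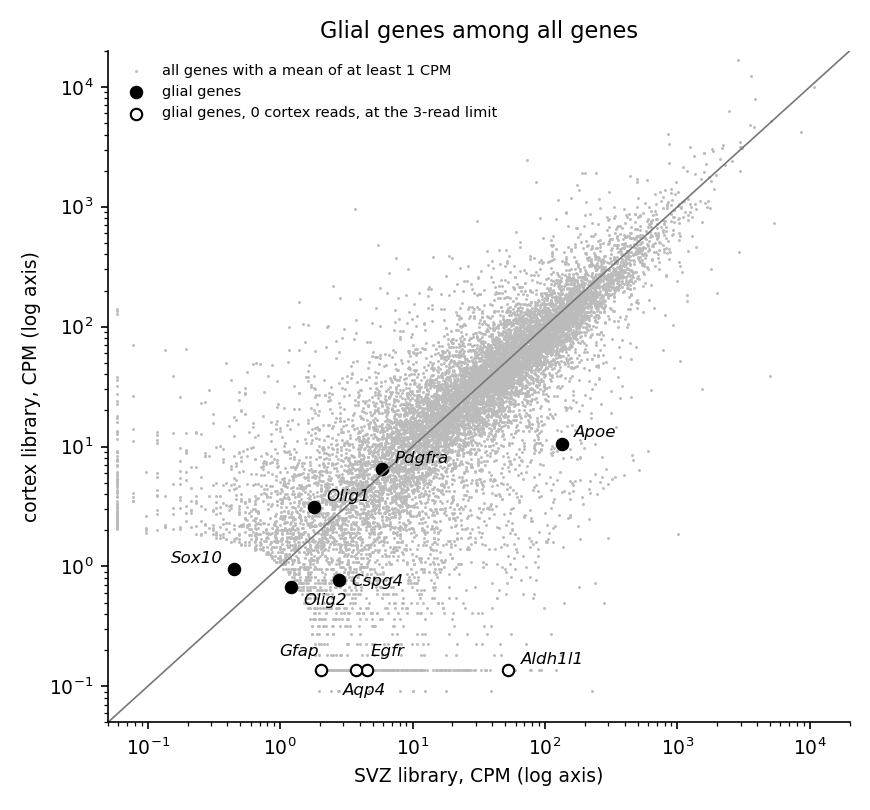
CPM in SVZ (horizontal, log axis) against CPM in cortex (vertical, log axis), with the diagonal at equal CPM. Grey points are the 12738 genes averaging 1 CPM or more, filled black points the glial genes and open points the glial genes with 0 cortex reads, drawn at 0.136 CPM. Pdgfra lies near the diagonal, and Aldh1l1 and Apoe lie far below it.

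For orientation, the bases just before the start site are shown for Pdgfra, whose level was similar in the libraries, and for Egfr, Gfap and Apoe, which were higher in SVZ. The sequences are from RefSeq on GRCm38.p6, which listed promoters for 7 of the 10 genes, and each runs 5′ to 3′ on the gene's strand over the 250 bases that end before the RefSeq start. Of the 3 starts listed for Apoe the farthest upstream is shown. No exon annotated by GENCODE lies in these 4 windows, and the Gfap window lies inside the longer GENCODE gene model of Gfap. Capitals mark matches to the motifs searched on both strands, which were TTCNNNGAA (bound by STAT factors), the palindromic NFI motif, ACAAAG (SOX factors), and CATATG and CAGCTG (E-boxes of basic helix-loop-helix factors).
Pdgfra (chr5:75152001-75152250, plus strand): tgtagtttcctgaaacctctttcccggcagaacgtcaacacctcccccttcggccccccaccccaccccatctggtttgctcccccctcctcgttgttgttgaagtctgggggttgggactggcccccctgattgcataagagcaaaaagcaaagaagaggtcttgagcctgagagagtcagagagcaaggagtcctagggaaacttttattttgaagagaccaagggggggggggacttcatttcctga
Egfr (chr11:16751953-16752202, plus strand): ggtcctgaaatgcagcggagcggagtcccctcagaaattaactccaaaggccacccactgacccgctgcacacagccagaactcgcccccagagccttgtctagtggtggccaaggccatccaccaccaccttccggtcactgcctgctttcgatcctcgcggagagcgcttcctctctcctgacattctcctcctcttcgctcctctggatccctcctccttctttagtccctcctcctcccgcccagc
Gfap (chr11:102897201-102897450, minus strand): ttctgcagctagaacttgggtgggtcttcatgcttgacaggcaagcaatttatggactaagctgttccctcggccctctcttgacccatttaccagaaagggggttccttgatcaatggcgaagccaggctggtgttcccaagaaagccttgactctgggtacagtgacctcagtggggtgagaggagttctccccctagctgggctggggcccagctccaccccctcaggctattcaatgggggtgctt
Apoe (chr7:19699189-19699438, minus strand): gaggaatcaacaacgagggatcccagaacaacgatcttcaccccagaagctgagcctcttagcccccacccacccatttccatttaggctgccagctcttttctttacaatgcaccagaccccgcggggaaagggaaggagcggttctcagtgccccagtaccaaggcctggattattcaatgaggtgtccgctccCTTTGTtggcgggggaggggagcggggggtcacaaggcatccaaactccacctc

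The only match in these 4 windows was the SOX motif of Apoe, CTTTGT on this strand, from 54 to 49 bases before the start. That motif occurs in 16.5% of the 32851 promoter windows of the same length. The STAT motif occurs in 7.02%, CAGCTG in 13.0%, CATATG in 3.46% and the NFI motif in 0.0365% of them. A match is a description of the letters and not of a bound site. The windows held 4 (Pdgfra), 11 (Egfr), 2 (Gfap) and 8 (Apoe) CpG dinucleotides, beside a median of 6 over all windows.

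The transcription factors of the oligodendrocyte lineage were examined first. Olig1 (GRCm38 chromosome 16, 91269772 to 91271933, plus strand), a basic helix-loop-helix factor, had 93 reads or 1.81 CPM in SVZ and 69 reads or 3.13 CPM in cortex. Its level was higher in cortex, by 1.73-fold, and its log2 ratio of SVZ to cortex was -0.79 (interval -1.26 to -0.32). Olig2 (chromosome 16, 91225457 to 91228677, plus strand), the related factor needed to form oligodendrocyte precursors and motor neurons, had 62 reads or 1.21 CPM and 15 reads or 0.680 CPM. The interval of its log2 ratio (0.83) ran from -0.0055 to 1.75, so that a difference in Olig2 was not detectable at this depth.

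Olig1 and Olig2 lie 41094 bases apart on the same strand, and their counts leaned to opposite sides. Olig1 made up 60.0% of the reads of the pair in SVZ (interval 51.8 to 67.8) and 82.1% in cortex (72.3 to 89.6). The intervals of these shares did not overlap, though this pair was chosen after the values were seen.

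Sox10 (chromosome 15, 79154908 to 79165240, minus strand), an HMG box factor that drives the oligodendrocyte programme, was the least read of the 10 genes. It had 23 reads or 0.447 CPM in SVZ and 21 reads or 0.952 CPM in cortex, and a log2 ratio of -1.09 (-2.01 to -0.16). Like Olig1 it was higher in cortex by its interval. In a further pair, chosen in the same way, Sox10 made up 19.8% of the reads of Sox10 and Olig1 in SVZ (13.0 to 28.3) and 23.3% in cortex (15.1 to 33.4), and these intervals overlapped. When SVZ reads were thinned at random to the cortex total, the log2 ratio of Sox10 was -1.81.

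Of the surface proteins of oligodendrocyte precursors, Pdgfra (chromosome 5, 75152292 to 75198215, plus strand) is the receptor for PDGF-A, which keeps the precursors dividing. It had 302 reads or 5.87 CPM in SVZ and 142 reads or 6.44 CPM in cortex. The log2 ratio was -0.13 (-0.43 to 0.16), and a difference was not detectable at this depth. Cspg4 (chromosome 9, 56865033 to 56899870, plus strand), the NG2 proteoglycan of oligodendrocyte precursors and of pericytes, had 143 reads or 2.78 CPM and 17 reads or 0.771 CPM. Its level was 3.61-fold higher in SVZ, a log2 ratio of 1.85 (1.12 to 2.67), the largest among the 5 oligodendrocyte genes and short of 4-fold.

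Pdgfra made up 67.9% of the reads of Pdgfra and Cspg4 in SVZ (63.3 to 72.2) and 89.3% in cortex (83.4 to 93.6), intervals that did not overlap. This pair, too, was chosen after the values were seen. Both genes are also active outside the oligodendrocyte lineage, Cspg4 in mural cells and Pdgfra in meningeal fibroblasts. The 8 mural markers summed to 109 CPM in SVZ and 70.7 CPM in cortex. Of the 6 above the mean of 1 CPM 0 were 4-fold apart, as Cspg4 was not, and 5 were higher in SVZ and 1 in cortex. The log2 ratios of these mural markers had a median of 0.63 and ran from -0.16 (Abcc9) to 1.94 (Notch3, interval 1.39 to 2.53). The 7 meningeal fibroblast markers summed to 5.13 and 9.52 CPM. Of the 4 tested 1 was higher in cortex by 4-fold or more, the collagen gene Col3a1 (17 and 68 reads, 9.33-fold), and 0 in SVZ, and 1 of the other 3, Col1a2, leaned to SVZ (96 and 32 reads, log2 ratio 0.36). Col1a1 had 0 reads in SVZ and 2 in cortex, and Slc6a13 28 and 3 reads, both below the mean for testing. The part of these cells in the counts of Cspg4 and Pdgfra was not tested. The 10 markers of the ventral telencephalon, where the first oligodendrocyte precursors arise, summed to 139 and 98.1 CPM. Of the 8 tested among them 7 lay within 4-fold, with a median log2 ratio of 0.65 over the 8. Their log2 ratios ran from -0.29 for Lhx6, a factor of migrating interneurons, to 4.19 for Gsx2, a factor of ventral progenitors and the only one past 4-fold. Nkx2-1 had 0 reads in both libraries.

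**Figure D3:**
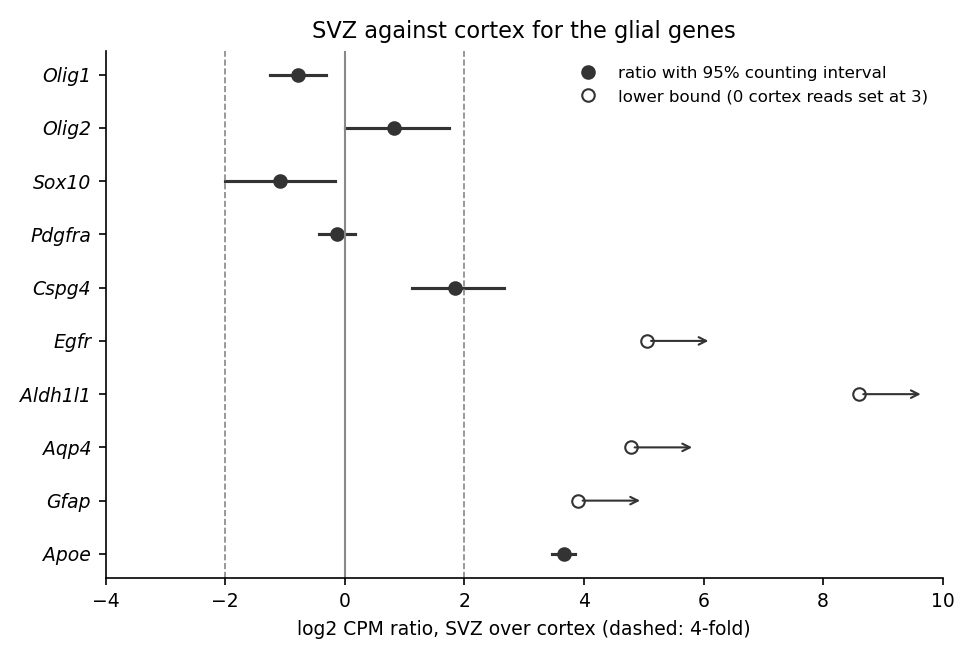
log2 of SVZ CPM over cortex CPM for each gene, with exact 95% Clopper-Pearson intervals of the reads as bars. Open circles with arrows are lower bounds for genes with 0 cortex reads, the solid line marks equal CPM and the dashed lines 4-fold. The 5 oligodendrocyte genes lie between -1.09 and 1.85, and the other 5 genes lie at 3.66 or above.

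Egfr (chromosome 11, 16752203 to 16918158, plus strand), the receptor for EGF and TGF-alpha that appears on progenitors late in neurogenesis, had 232 reads or 4.51 CPM in SVZ and 0 in cortex. At the SVZ level 99.5 reads would have been counted in cortex. Against the floor of 3 reads Egfr was at least 33.2-fold higher in SVZ, a log2 ratio of at least 5.05 (interval from 4.74).

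The astrocyte genes were then compared. Aldh1l1 (chromosome 6, 90486427 to 90600203, plus strand), which encodes a folate enzyme used as a general astrocyte marker and is also active in radial glia, had 2718 reads or 52.8 CPM in SVZ and 0 in cortex. At the SVZ level 1165 cortex reads would have been counted. It was at least 388-fold higher in SVZ (log2 ratio at least 8.60, interval from 8.30), the largest bound of the 10 genes.

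Genes of more mature astrocytes were read at low levels. Aqp4 (chromosome 18, 15389496 to 15410982, minus strand), the water channel of astrocyte endfeet and ependyma, had 192 reads or 3.73 CPM in SVZ and 0 in cortex, and was at least 27.4-fold higher in the former (log2 ratio at least 4.78, interval from 4.47). Gfap (chromosome 11, 102887336 to 102900912, minus strand), the intermediate filament of astrocytes, had 105 reads or 2.04 CPM and 0 reads, and was at least 15.0-fold higher in SVZ (log2 ratio at least 3.91, interval from 3.58). At their SVZ levels 82.3 reads of Aqp4 and 45.0 reads of Gfap would have been counted in cortex. These bounds are set by the floor of 3 cortex reads, so that the smaller bounds of Gfap and Aqp4 follow from their lower SVZ levels.

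Apoe (chromosome 7, 19696109 to 19699188, minus strand), the lipid carrier made by radial glia, astrocytes and microglia, was the most read of the 10 genes. It had 6876 reads or 134 CPM in SVZ and 233 reads or 10.6 CPM in cortex. It was 12.7-fold higher in SVZ, with a log2 ratio of 3.66 (3.47 to 3.86), and was the only astrocyte gene of the 4 with cortex reads.

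Summed over each list, markers of other cells that can carry these genes were also higher in SVZ. All 11 microglia markers were higher in SVZ, 8 of them by 4-fold or more, beside 54.9% and 10.2% of all tested genes. They summed to 116 CPM in SVZ and 33.4 CPM in cortex, with Trem2 at 0 cortex reads. The 7 markers of choroid plexus and ependyma summed to 247 and 0.907 CPM, of which Ttr, the choroid plexus gene for transthyretin, held 240 and 0.726 CPM. Clic6, Folr1, Kcne2 and Otx2 of this list had 0 cortex reads, and Kl had 0 reads in both libraries. Foxj1, a marker of ependyma in this list, had 13 and 4 reads. The interval of its log2 ratio (0.48) ran from -1.22 to 2.55, so that a difference in Foxj1 was not detectable at this depth. Only 2 of the 7 genes, Ttr and Folr1, averaged 1 CPM or more. The 10 radial glia markers summed to 7131 and 520 CPM, and the 8 endothelial markers to 120 and 99.4 CPM. The part of microglia, choroid plexus, ependyma and radial glia in the counts of Apoe, Aqp4, Aldh1l1, Gfap and Egfr was not tested.

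**Figure D4:**
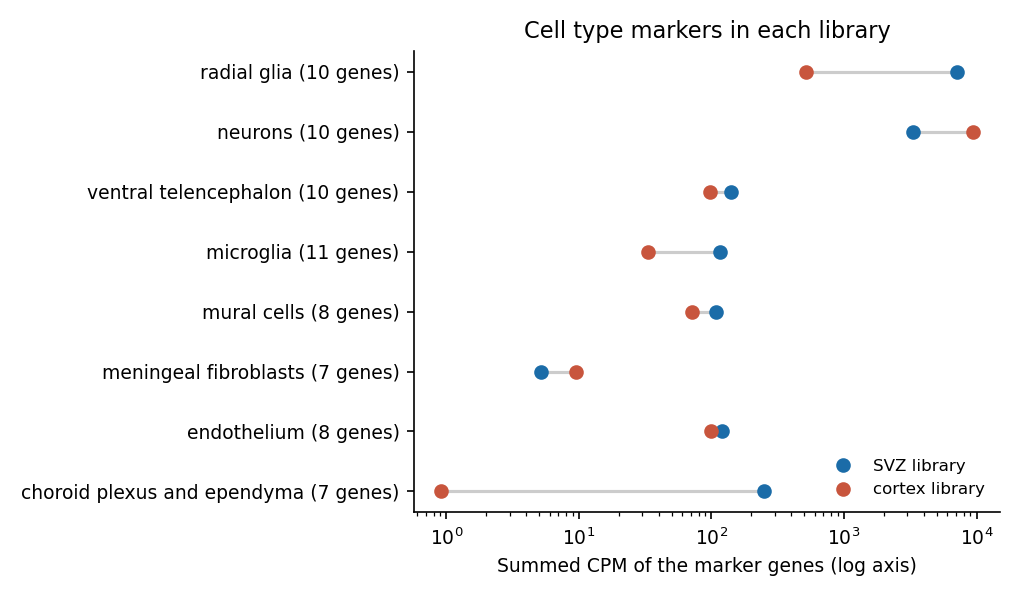
Summed CPM (log axis) of 8 lists of cell type markers in SVZ (blue) and cortex (red), with the number of genes in each list beside its name. The choroid plexus and ependyma list is the farthest apart, at 247 and 0.907 CPM, and the mural and endothelial lists lie close together.

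Levels of different genes were compared only per length, as CPM divided by the length of the merged GENCODE exons in kilobases (RPKM). In SVZ Apoe (62.5 RPKM) and Aldh1l1 (11.7 RPKM) stood above the other genes, which lay between 0.836 RPKM (Olig1) and 0.147 RPKM (Sox10). The order below Aldh1l1 was Olig1, Aqp4, Pdgfra, Gfap, Olig2, Egfr, Cspg4 and Sox10, and neighbours in it had overlapping Poisson intervals, except Egfr (0.398 RPKM) and Cspg4 (0.233 RPKM). In cortex the order was Apoe (4.94 RPKM), Olig1 (1.45), Pdgfra (0.642), Sox10 (0.312), Olig2 (0.269) and Cspg4 (0.0646), in which only the intervals of Sox10 and Olig2 overlapped between neighbours. With the length of the longest transcript, Pdgfra (0.859 RPKM) came before Olig1 and Gfap (0.771 RPKM) before Aqp4 (0.739 RPKM) in SVZ, and the cortex order was the same.

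Other genes of the oligodendrocyte lineage also lay on both sides. Of 25 such genes 12 averaged 1 CPM or more. Their median log2 ratio was -0.66, beside 0.11 over all 12738 tested genes, with Sox8 at its bound. With no filter on low values the median was 0.00045 over 19 genes. That value is the bound of a gene with 7 SVZ reads and 0 cortex reads, so the floor of 3 reads set it. Sox8, an HMG box factor related to Sox10, had 4.82 CPM in SVZ and 0 cortex reads, and was at least 35.4-fold higher in SVZ. Of the 12 genes, 2 were higher in SVZ by 4-fold or more and 3 in cortex, beside 10.2% and 7.01% of all tested genes. The 3 higher in cortex were Vcan, which encodes the matrix proteoglycan versican (28.3 and 205 CPM), Tnr, which encodes tenascin-R (0.194 and 6.08 CPM), and the myelin gene Mog (2.12 and 9.34 CPM). Sox8, Tnr and Mog were named after their values were seen.

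The genes of this list with the most reads, Ptprz1, Vcan and Cspg5, are not confined to oligodendrocyte precursors. Ptprz1, a receptor phosphatase that radial glia also express, had 404 CPM in SVZ and 390 CPM in cortex, and Cspg5 had 24.5 and 62.6 CPM. Late genes of the lineage were scarce: Myrf, Opalin, Mobp, Neu4 and Nkx6-2 had 0 reads in both libraries, and Bcas1 had 0 in SVZ and 2 in cortex.

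Other genes of the astrocyte lineage were mostly higher in SVZ. Of 24 genes 21 averaged 1 CPM or more. Of these, 13 were higher in SVZ by 4-fold or more and 0 in cortex, beside 10.2% and 7.01% of all tested genes. Their median log2 ratio was 3.01, beside 0.11 over all tested genes, with Mlc1 at its bound. The largest ratios were those of Aldoc, a glycolytic enzyme of astrocytes (52105 and 41 reads, log2 ratio 9.09), and Mlc1, a membrane protein of astrocyte endfeet (3050 and 0 reads, log2 ratio at least 8.77). Next came Tnc (7.45), which encodes tenascin-C, Fabp7 (6.99), the brain lipid-binding protein of radial glia, Hes5 (6.04), a Notch target, and Acsbg1 (5.81), an acyl-CoA synthetase.

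At the other end of the list, Nfia and Nfib, factors that promote gliogenesis and also act in neurons, were the 2 genes higher in cortex. Nfib had 3505 CPM in SVZ and 4845 CPM in cortex, and Nfia 546 and 880 CPM. Nfia was named after its values were seen. This list overlaps with radial glia, whose marker list shares 4 of its genes, and the expression of astrocytes and of radial glia cannot be told apart in these pieces.

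**Figure D5:**
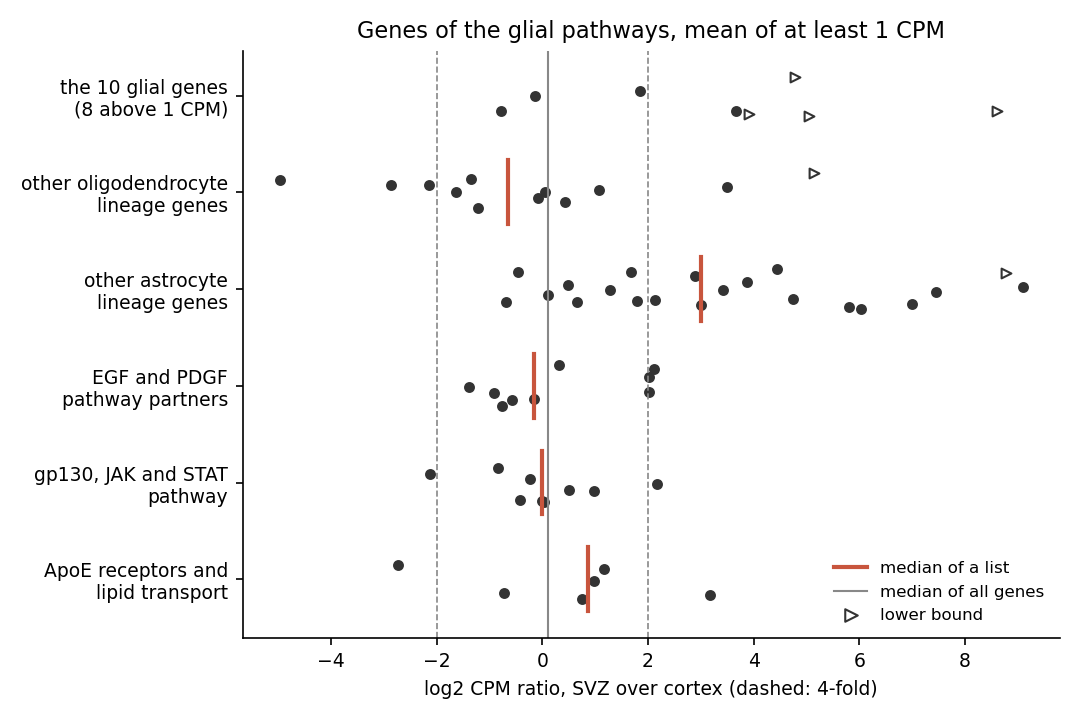
log2 of SVZ CPM over cortex CPM of each gene averaging 1 CPM or more, by list. Open triangles are lower bounds, red bars the list medians (not drawn for the glial genes chosen), the solid line the median of all tested genes (0.11) and the dashed lines 4-fold. The astrocyte list lies mostly to the right, with a median of 3.01, and the other oligodendrocyte genes lie on both sides.

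Partners of the receptors were examined next. Of 15 genes of the EGF and PDGF pathways 9 averaged 1 CPM or more, with a median log2 ratio of -0.16. Higher in SVZ by 4-fold or more were 3 of these 9 genes, beside 10.2% of all tested genes. All 3 were of the EGF family and lay close to that threshold. They were Tgfa, a ligand of Egfr (414 and 44 reads, 4.03-fold), Erbb2, its co-receptor (232 and 23 reads, 4.32-fold), and Erbb4, a neuregulin receptor (310 and 33 reads, 4.03-fold). Their intervals reached below 4-fold, and under TMM, upper-quartile or DESeq2 scaling 1 of the 3 passed it. They were named after their values were seen. The most read genes of the list were higher in cortex by less than 4-fold. Pdgfc had 9.93 CPM in SVZ and 14.8 CPM in cortex, Hbegf, another ligand of Egfr, 7.62 and 20.0 CPM, and Pdgfa, the ligand of Pdgfra, 5.17 and 9.75 CPM. The log2 ratio of Pdgfa was -0.91 (-1.18 to -0.65).

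The gp130, JAK and STAT pathway carries the cytokine signal that promotes astrocyte genes such as Gfap. Of its 12 genes 9 averaged 1 CPM or more, with a median log2 ratio of 0.0019. The cytokine gene Ctf1 (cardiotrophin 1), named after its values were seen, was 4.49-fold higher in SVZ (12.4 and 2.77 CPM, log2 ratio interval 1.79 to 2.57). Lifr, the receptor for leukaemia inhibitory factor, was 4.34-fold higher in cortex (23.0 and 100.0 CPM). Among the most read genes, Jak1 had 70.9 and 127 CPM and Jak2 52.6 and 62.1 CPM, and the ligand genes Lif and Clcf1 had 0 reads in both libraries.

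Receptors and transporters that work with apolipoprotein E lay on both sides. Of 7 genes 6 averaged 1 CPM or more, with a median log2 ratio of 0.87. Abca1, the transporter that loads lipid onto apolipoproteins, had 101 CPM in SVZ and 11.3 CPM in cortex, a log2 ratio of 3.16 (2.98 to 3.35). Vldlr, a receptor for apolipoprotein E and reelin, had 38.9 and 259 CPM and a log2 ratio of -2.73 (-2.81 to -2.66). The most read, Lrp8 and Abcg1, had log2 ratios of 0.99 and 1.16.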

How the data were processed

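LCM RNA-seq reads of 1 SVZ library and 1 cortex library were analysed. Per the study's methods, adapters were trimmed (cutadapt 4.1) and the first read of each pair was mapped to mm10 with STAR 2.7.9a. The deposited values are STAR's raw counts, in whole reads per gene. The column that ignores strand was used, and the 4 summary lines, 41.0% of SVZ and 40.9% of cortex reads, were left out. STAR drops reads that map to several places or overlap more than 1 gene. The authors' table of CPM values, fold changes and log10 ratios was not used.

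CPM was computed on gene-assigned reads, and the log2 ratio of SVZ to cortex without a pseudocount, with a count of 0 set at 3 reads and no ratio where both counts were at or under 3. No test was possible. The genes and lists were chosen with earlier results of these data known. Named were the 10 genes, in each pathway list the 3 genes with the most reads and up to 6 genes 4-fold or more apart that averaged 10 CPM or more, and the 2 genes nearest in level to each of the 10 with at least 10 CPM. Positions and lengths came from GENCODE M21 on GRCm38. The exons of Olig1, Pdgfra and Aldh1l1 overlap genes that the count list leaves out, whose reads cannot be told apart from theirs without strand. Alternatives were scaling by TMM or the upper quartile in edgeR 4.0.16 or by the size factors of DESeq2 1.42.0. Further ones were leaving the 10 most counted genes of each library out of both totals, the stranded columns, thinning, a pseudocount, and other minimums and fold thresholds. The values of 1 gene of the oligodendrocyte list are not reported here. The procedure was tested on simulated counts with Poisson error only. Such counts hold no PCR duplicates and no variation between replicate libraries, so that this check does not cover them. Scripts ran in R 4.3.3 and in Python 3.11.15 with scipy 1.17.1 and numpy 2.4.6, tables were read with pandas 2.3.3, and plots drawn with matplotlib 3.10.9.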

Additional observations from a re-analysis of the deposited data

How the results depend on the processing

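No paired analysis was possible because SVZ and cortex were sequenced as a single library each, which also leaves no replicate to omit. Of 70 log2 ratios of the 10 genes recomputed under 7 alternatives, 65 stayed inside the counting interval and 0 changed sign. The 5 that left it did so with a pseudocount of 1 CPM, which draws low counts towards 0: Cspg4 1.09, Egfr 2.46, Aldh1l1 5.75, Aqp4 2.24 and Gfap 1.60. The scalings, the reduced totals and the stranded columns shifted all 10 log2 ratios by the same amount, at most 0.099. That is less than the distance from any of these ratios to its interval ends. Only thinning and the pseudocount could therefore move a ratio out of its interval. Of the genes higher in SVZ by 4-fold or more, 2 were left at a mean of at least 10 CPM, which only Aldh1l1 and Apoe reach. The count of 5 among 8 was 4 among 7 under TMM, upper-quartile or DESeq2 scaling, with the stranded columns and with thinning. It was 4 among 8 with the pseudocount and 5 among 9 without the 10 most counted genes of each library. Gfap averaged 1.02 CPM, close to the minimum of 1 CPM. Over all genes, 1207 of 12727 passed under TMM and 933 of 12738 with the pseudocount. The other scalings lowered each log2 ratio by at most 0.099 (upper quartile). The depth of the cortex reads sets the bounds of the 4 genes with 0 cortex reads.

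The list counts moved with the rule. At a mean of at least 10 CPM the oligodendrocyte list had 1 gene 4-fold higher in each library, the EGF and PDGF list 0 in SVZ with a median of -0.98 over 2 genes, and the gp130 list 0 in SVZ with a median of -0.54 over 4 genes. With no filter on low values the oligodendrocyte median was 0.00045, and 1 gene of the EGF and PDGF list was 4-fold higher in cortex and 2 of the gp130 list in SVZ. At 2-fold the cortex counts were 6 (oligodendrocyte) and 1 (EGF and PDGF), and the SVZ count of the apolipoprotein E list was 2. At 10-fold the oligodendrocyte cortex count was 1, and the EGF and PDGF SVZ count and both counts of the gp130 and apolipoprotein E lists were 0. The EGF and PDGF SVZ count was 1 under TMM, upper-quartile and DESeq2 scaling and with totals without the 10 most counted genes of each library. It was 0 with the pseudocount and where the whole interval had to pass 4-fold, as was the gp130 SVZ count. Of 189 list results recomputed, 162 stayed within 1.5 times a count, or inside the medians of the lower and upper interval ends of the genes of a list. Over all genes, 1300 were higher in SVZ by 4-fold or more and 893 in cortex. These counts were 609 and 424 among genes averaging 10 CPM, 1868 and 1473 with no filter, 2547 and 1992 at 2-fold, and 713 and 381 at 10-fold.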

Other observations

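The genes nearest in level to the most read glial genes were looked up over both libraries among 9027 genes averaging 10 CPM or more, by distance in log2 CPM. Nearest to Apoe were Rcn1 (133 and 10.6 CPM, distance 0.011) and Id4 (128 and 9.98 CPM, distance 0.11), an inhibitor of helix-loop-helix factors. Nearest to Aldh1l1, with 0 cortex reads set at 3, were the mitotic genes Spag5 (49.3 CPM in SVZ and 0 cortex reads, distance 0.099) and Cep55 (58.6 CPM and 0, distance 0.15). With 2 libraries, likeness says only that the levels are close.

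The stranded count columns were compared with the unstranded column. For all 10 genes the stranded columns added up to the unstranded count in both libraries, so that no read of these genes was set aside by the strand rule. For 3449 of 12738 tested genes the sum differed in at least 1 library. By GENCODE exons, none of the 10 genes overlaps a counted gene on the opposite strand. Their equal sums thus follow from the annotation and are no check of these counts.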
